A study of Mus musculus with 6 samples.

Results

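The 83 genes described here encode the proteins of the cytosolic ribosome, 51 of them of the large subunit and 32 of the small subunit, out of 19848 genes in the RNA table. They were taken by symbol alone: Rpl or Rps followed by a number, with the paralogs that carry a trailing letter, and the 4 members with other names, Rplp0, Rplp1, Rplp2 and Rpsa. Copies with the ending -ps, ribosomal protein kinases and mitochondrial ribosomal proteins are not members. The table came from CITE-seq, which reads the RNA and antibody tags of single cells, on immune cells enriched by a density gradient from whole perfused brains. The animals were female C57BL/6 mice in 4 groups of 6: young (12 weeks) or aged (72 weeks), each given either vehicle, with an unperturbed gut microbiota (control), or antibiotics that depleted it (antibiotic). The 24 brains were collapsed into 12 pools, 3 per group, each marked by a hashtag antibody. All young pools ran in 1 droplet well and all aged pools in another, and control and antibiotic pools carried different hashtags, so age and well, and likewise arm and hashtag, cannot be told apart here.

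The ribosome is built from ribosomal RNA and a copy of each of these proteins, which are made in the cytosol, carried to the nucleolus and assembled there into subunits. Their mRNAs are among the most abundant of a cell, and many begin with a run of C and T bases, the terminal oligopyrimidine (TOP) tract, through which mTOR signalling and Larp1 set how strongly they are translated. Resting lymphocytes, monocytes, microglia and neutrophils differ in size, division and protein synthesis. How these relate to the part of their mRNA that codes for ribosomes was not tested here. Some members have a second gene (Rps27l beside Rps27, Rpl22l1 beside Rpl22, Rpl36al beside Rpl36a) whose protein can take the same place in the ribosome.

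The start of the transcript is the sequence these genes are known to share, so windows of 30 bases, 10 before and 20 from the annotated start, are shown for the members on which the results turn. Sequences are from RefSeq on GRCm38.p6, written 5′ to 3′ on the gene's own strand, with the longest run of C and T in capitals. The first 3 windows are of genes with a run of at least 8 such bases (Rpl38 at chr11:114668570-114668599, plus strand, Rps27 at chr3:90213629-90213658, minus strand, and Rps9 at chr7:3704031-3704060, plus strand). Rpl38 recurs in the age comparisons, and Rps27 is named in that of ILC controls.
Rpl38: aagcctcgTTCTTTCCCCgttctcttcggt
Rps27: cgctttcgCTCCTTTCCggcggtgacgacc
Rps9: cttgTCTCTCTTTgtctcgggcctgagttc
Rpl12 (chr2:32961702-32961731, plus strand) and Rpsa (chr9:120127756-120127785, plus strand) are among the members whose level varied most between cell types, and Rpl27 (chr11:101442235-101442264, plus strand) and Rplp0 (chr5:115559457-115559486, plus strand) recur in the age comparisons. None of the 4 has a run of 8.
Rpl12: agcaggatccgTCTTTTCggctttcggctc
Rpsa: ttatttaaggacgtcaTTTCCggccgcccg
Rpl27: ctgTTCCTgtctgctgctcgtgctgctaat
Rplp0: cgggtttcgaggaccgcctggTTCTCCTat
The last 3 belong to paralog pairs: Rps27l (chr9:66946076-66946105, plus strand), whose levels ran differently from those of Rps27 above, and, as a pair whose levels ran alike, Rpl22 (chr4:152325716-152325745, plus strand) and Rpl22l1 (chr3:28805498-28805527, plus strand).
Rps27l: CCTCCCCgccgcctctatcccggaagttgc
Rpl22: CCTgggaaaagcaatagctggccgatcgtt
Rpl22l1: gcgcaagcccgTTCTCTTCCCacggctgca
An entry was found for 63 of the 83 members. Of these, 21 (33.3%) held a run of 8 or more C and T bases on the gene's own strand. The same was so for 3021 of 27025 genes in the same RefSeq table (11.2%). The median longest run was 6 bases for the members and 4 for all genes. The same window held such a run in 4 of 12 genes of a list of elongation factors and other TOP mRNAs (33.3%), 6 of 69 mitochondrial ribosomal protein genes (8.70%), 2 of 21 initiation factors (9.52%) and 1 of 33 ribosome biogenesis factors (3.03%). The annotated start need not be the start used in these cells, so the letters are a description of the window only.

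The table held 13052 cells, all called singlets by the authors, with 760 to 1590 cells per pool, 5745242 to 13742781 raw UMIs per pool and a median of 6512 to 7226.5 raw UMIs per cell in a pool. All RNA levels are the authors' corrected UMI values (SCT), taken as the mean per cell for each type and pool. The reads come from the 3′ end and the values are not scaled by length, so each gene is compared with itself and not with another gene. Cell types are the authors' own classes: microglia (9403 cells), border macrophages called BAM (506), Ly6CLow (634) and Ly6CHigh (389) monocytes, Ly6C+Ly6G+ cells (352), BCells (487), CD4+ (214), CD8+ (728) and ILCs (330). The defining markers were highest in the class they name for 6 of 6 microglia, 6 of 6 neutrophil (Ly6C+Ly6G+) and 6 of 6 B cell markers, and for 5 of 6 BAM markers, F13a1 being higher in Ly6CHigh. The same was so for 4 of 5 markers each of Ly6CHigh, Ly6CLow and ILCs, 5 of 5 of CD8+ and 2 of 5 of CD4+ cells, whose other 3 were higher in CD8+. The ILC class carried both innate lymphoid genes (Gata3, Il1rl1, Areg) and natural killer genes (Ncr1, Klrb1c, Gzma). A pool's value is a mean over the cells of a class, so another mix of cells within the class and another level per cell cannot be told apart.

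Ribosomal protein mRNA took 13.3% of the RNA value of all cells, and its share went up in steps from granulocytes over microglia and macrophages to monocytes and lymphocytes. The share was 5.78 ± 1.90% in Ly6C+Ly6G+ cells (SD, n = 9 pools), 9.51 ± 0.730% in microglia (n = 12), 13.3 ± 1.43% in BAM (n = 12), 18.8 ± 2.58% in Ly6CLow (n = 12) and 18.8 ± 1.72% in Ly6CHigh cells (n = 11). It was 26.2 ± 2.33% in BCells (n = 12), 29.0 ± 2.90% in ILCs (n = 11), 31.3 ± 2.95% in CD4+ (n = 8) and 34.7 ± 1.58% in CD8+ cells (n = 11). Every BAM pool (10.996 to 15.4%) lay above every microglia pool (8.21 to 10.6%), and every BCells pool (23.6 to 29.0%) lay above every Ly6CLow (15.2 to 22.2%) and Ly6CHigh pool (16.4 to 22.0%). Neighbours in this order otherwise overlapped: Ly6C+Ly6G+ cells (4.13 to 9.18%) with microglia, BAM with Ly6CLow, the monocyte classes with each other, and BCells, ILCs (25.2 to 33.2%), CD4+ (27.2 to 35.5%) and CD8+ (31.8 to 36.3%) each with the next. These levels are described without a test, since the authors set the classes on the same cells.

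**Figure D1:**
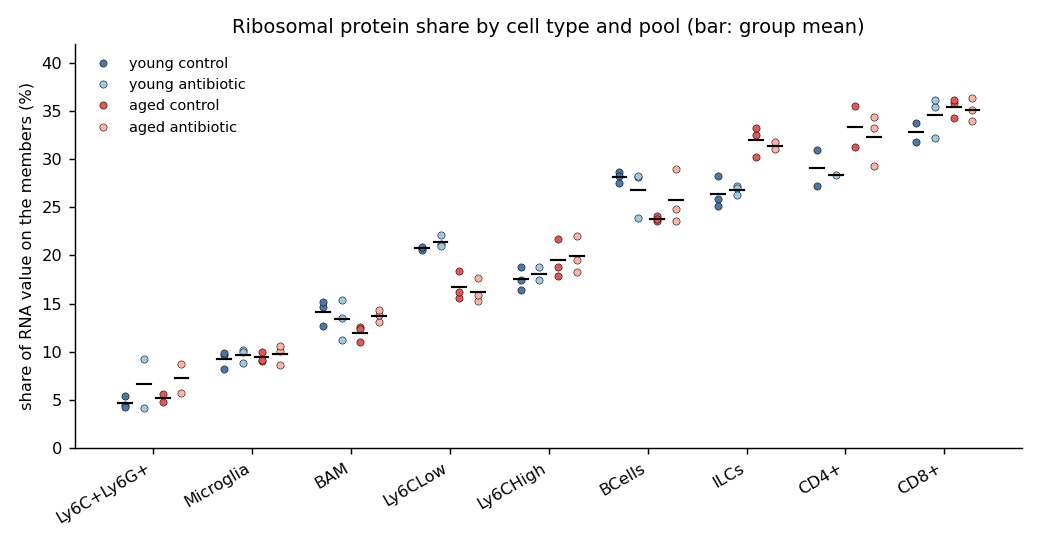
Share of the summed RNA value on the 83 members (y axis, percent) in each cell type (x axis), 1 point per pool of at least 10 cells, coloured by group, with bars for group means. Microglia pools sit between 8.21 and 10.6% and CD8+ pools between 31.8 and 36.3%.

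The order held for nearly all members of both subunits. Of the 80 members with a mean of at least 0.5 per cell, all 80 were higher in CD8+ cells than in microglia, with a median log2 difference of 1.85, and 738 of 2002 genes of the same minimum level were, with a median of -0.44. The median over members was 1.07 in Ly6CLow, 1.03 in Ly6CHigh, 1.37 in BCells, 1.54 in ILCs and 1.58 in CD4+ cells, where all genes had medians of -0.24, -0.14, -0.31, -0.36 and -0.42. In BAM, 79 of 80 members were higher than in microglia, with a median of 0.49 against -0.20 for all genes. In Ly6C+Ly6G+ cells the members' median of -0.86 was close to that of all genes, -0.85. The large subunit (median 1.78 in CD8+ cells, 48 genes) and the small subunit (1.88, 32 genes) had similar medians. CD8+ cells had the highest level of 76 of the 80 members, Ly6CHigh of 3 and BCells of 1 (Rpl31). Ly6C+Ly6G+ cells had the lowest level of 78, and microglia of Rps9 and Rps27a. The 21 members with a C and T run of 8 had a median of 1.91 in CD8+ cells against microglia and the 39 without had 1.85.

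The stalk proteins did not follow 1 pattern. Rplp0, Rplp1 and Rplp2 form the lateral stalk of the large subunit that recruits and activates the elongation factors. Rplp0 averaged 8.86 corrected UMIs per cell in microglia and 39.5 in CD8+ cells, and was higher than in the microglia of the same pool in all 11 Ly6CHigh pools, with a log2 difference of 1.72. Rplp1 averaged 23.4 in microglia (19.3 to 25.6 over 12 pools) and 21.3 in Ly6CHigh cells (18.4 to 25.2 over 11 pools), the only member of the 80 with a lower mean in Ly6CHigh than in microglia. It was higher than in microglia in 2 of 11 Ly6CHigh pools, with a log2 difference of -0.15 ± 0.17 (SD), while in CD8+ cells it averaged 60.9 (53.5 to 67.3) and was higher in 11 of 11. Rplp2 averaged 7.58 in microglia and 29.1 in CD8+ cells and lay above microglia in all 11 Ly6CHigh pools. The same Ly6CHigh cells therefore held high Rplp0 and Rplp2 values beside an Rplp1 value within the range of microglia.

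Rpsa, a small subunit protein also known as the laminin receptor precursor, averaged 7.25 in microglia (6.41 to 8.27) and 52.2 in CD8+ cells (44.7 to 64.5 over 11 pools), a log2 difference of 2.82. No CD8+ pool came near a microglia pool. Together with Rpl12 (range 4.29 on the log2 scale over the 9 types), Rpl36a (3.66), Rps15a (3.53), Rps18 (3.50) and Rplp1 (3.41), Rpsa (3.44) had the widest range over types. Rpl12, which binds at the base of the stalk, averaged 2.53 in Ly6C+Ly6G+ cells (1.58 to 6.00 over 9 pools), 7.72 in microglia (6.62 to 8.64) and 45.7 in CD8+ cells (40.3 to 50.3). Among the 80 members with a mean of at least 0.5, the narrowest ranges were those of Rpl31 (1.91), Rps25 (1.62), Rps27a (1.56) and Rps9 (1.39). Rps27a is made as a fusion with ubiquitin, which is cut off to give a free ubiquitin and the ribosomal protein. It averaged 12.2 in microglia, 14.3 in Ly6C+Ly6G+ cells and 36.1 in CD8+ cells. Rps9, a protein of the decoding part of the small subunit, averaged 13.1, 15.6 and 34.3 in these types and was higher than in microglia in 8 of 9 Ly6C+Ly6G+ pools.

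**Figure D2:**
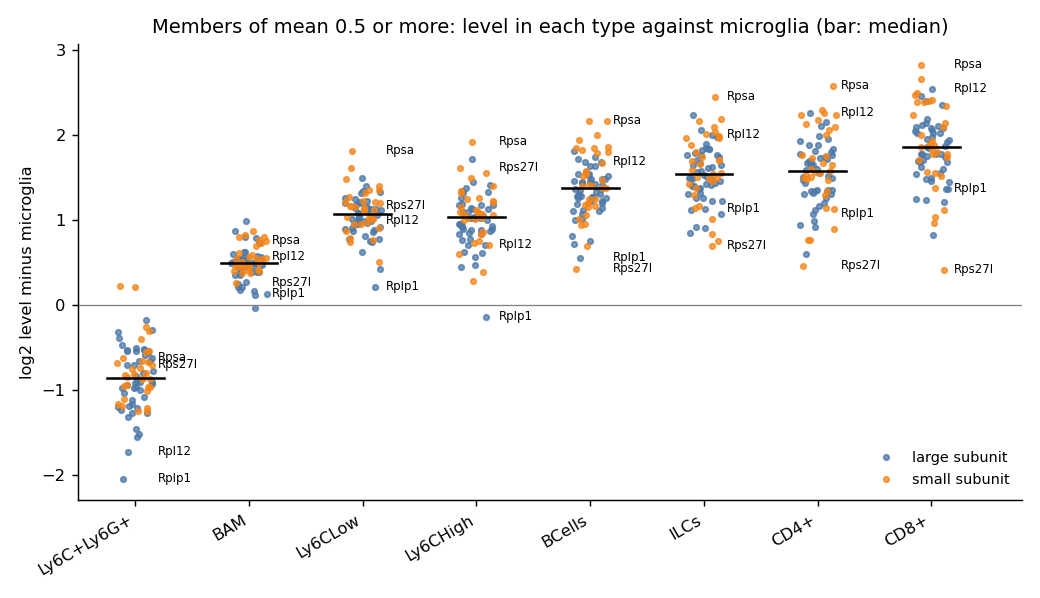
Log2 level in each cell type minus that in the microglia of the same pools (y axis), 1 point per member of mean at least 0.5, coloured by subunit, with a bar for the median. The cloud lies above 0 from BAM to CD8+ cells apart from 1 member in BAM and Rplp1 in Ly6CHigh, and Rpsa leads every type from Ly6CLow to CD8+.

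Among the paralog pairs, Rps27l and Rpl7l1 ran differently from their partner genes over the types, and Rpl22l1 ran like Rpl22. Rps27 averaged 9.34 in microglia and 48.4 in CD8+ cells, whereas Rps27l, a p53-responsive paralog, averaged 0.690 in microglia (0.589 to 0.804), 0.940 in CD8+ cells (0.645 to 1.27) and 2.25 in Ly6CHigh cells (1.64 to 2.70), its highest level. Every Ly6CHigh pool held more Rps27l than every microglia or CD8+ pool. Rpl36a averaged 3.59 in microglia and 15.6 in CD8+ cells, while Rpl36al averaged 0.819 in microglia, 2.02 in CD8+ and 2.15 in Ly6CHigh cells. Rpl22 (4.51 and 16.7) and Rpl22l1 (2.10 and 6.53), 2 paralogs known from T cell development, both ran from microglia up to CD8+ cells. Rpl7 went from 6.88 to 20.4, and Rpl7l1, a relative found in ribosome assembly, ran the other way, from 0.536 in microglia (0.490 to 0.623), its highest level, to 0.311 in CD8+ cells (0.133 to 0.550). Rpl39 went from 9.47 to 40.6 and its testis paralog Rpl39l averaged 0.0208 in microglia. Rpl3 went from 7.76 to 27.0, and Rpl3l, known from muscle, averaged 0.000976 in microglia and 0.0982 in Ly6C+Ly6G+ cells. Rpl10 was highest in Ly6CHigh cells (21.8, against 20.3 in CD8+ and 11.3 in microglia), and the X-linked Rps4x went from 11.9 to 35.5.

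Genes of the wider translation machinery followed the members to different degrees. Among genes with a mean of at least 0.5, all 18 of the elongation and TOP list were higher in CD8+ cells than in microglia (median log2 1.501), as were 6 of 7 mitochondrial ribosomal protein genes (0.70), 6 of 7 ribosome biogenesis genes (0.43) and 9 of 15 initiation factors (0.29). The list of biogenesis genes holds 40, that of initiation factors 25 and that of mitochondrial ribosomal proteins 78, so these counts cover the more abundant ones. Of 18 regulators 4 reach that mean, and 0 of these 4 were higher in CD8+ cells than in microglia (median log2 -0.56). Among 1922 genes outside the members, those whose mean level ran most like the median member over the 9 types were Rack1, a scaffold of the small subunit (Spearman 1.0, Pearson 0.992), Eif3e (1.0 and 0.981) and Rps27rt, a near copy of Rps27 whose reads may be shared with it (1.0 and 0.973). Eef1b2, Snrpg, Tpt1 and Eef2 followed with a Spearman value of 0.983. These values are over 9 type means of the same pools and carry no test.

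In microglia, no member passed the test between the antibiotic and the control arm. The share of RNA value on the members was 9.65, 8.21 and 9.81% in the young control pools and 10.2, 8.81 and 9.98% in the young antibiotic pools. It was 9.03, 9.14 and 10.0% in the aged control pools and 8.60, 10.1 and 10.6% in the aged antibiotic pools. Pools of all 4 groups overlapped, and the difference antibiotic minus control was 0.431 percentage points in young and 0.368 in aged mice. With limma across all 8759 genes tested in microglia, 0 of 81 members passed an adjusted p of 0.05 in young mice, where 0.137% of all genes did, 0 in aged mice (3.23%) and 0 over both ages (5.4%). The test of whether the effect differs by age called 0 members as well (0.0%). At an unadjusted p under 0.05 the members numbered 0, 1, 1 and 0, and 10.6%, 18.4%, 21.1% and 6.61% of all genes were below that p in these tests (579 genes in the last). The members' median log2 difference was 0.04 in young mice, 0.03 in aged mice and 0.04 over both ages, with 72, 71 and 74 of 81 above 0, and the medians of all genes were -0.02, -0.01 and -0.01. The log2 difference of a single member such as Rplp1 had a standard error of 0.105 within an age.

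The member nearest to the threshold was Rps27l. Its level in aged microglia was 0.782, 0.804 and 0.765 in control pools and 0.617, 0.685 and 0.735 in antibiotic pools, so that every antibiotic pool lay below every control pool. In young microglia it was 0.636, 0.680 and 0.708 in control and 0.589, 0.636 and 0.640 in antibiotic pools, which overlapped. The log2 difference was -0.20 (SE 0.0678) in aged mice with an adjusted p of 0.113 by limma, -0.11 in young mice (0.613) and -0.15 over both ages (0.0689). Over both ages Rps27l passed the threshold when aged antibiotic pool 3 was left out (log2 -0.18), when cells under 2000 raw UMIs were left out (-0.16) and on means of log values per cell (-0.06). Rpl27 in young mice (0.09, adjusted p 0.746), Rpl36al in aged mice (-0.10, 0.525), and Rpl14 over both ages (0.08, 0.518) had the next smallest p and did not pass. The same was so for Rpl36al (-0.14, 0.875) and Rpl22l1 (0.10, 0.922) in the difference between the ages.

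Around the members, some genes of translation were called between the antibiotic and control arms in microglia. Of all genes, 3.23% were called in aged mice and 5.4% over both ages. Ddit4, a stress gene whose product restrains mTOR, rose in aged mice (log2 1.46, adjusted p 0.0173 by limma) and was the only one of 17 regulators called there. Nop16 (-0.50, 0.00221), 1 of 38 biogenesis genes, and Mrps15, 1 of 76 mitochondrial ribosomal protein genes, fell in aged mice. None of the 18 elongation and TOP genes was called in any antibiotic comparison. Over both ages, 3 of 38 biogenesis genes fell (Nop16, Bop1 and the polymerase I factor Ubtf). Eif4ebp1, an mTOR target that holds back initiation, fell as well, as did Cdkn1a and Zfp622 among the 17 regulators.

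Between aged and young pools, which ran in different wells, 1 member was called in microglia. Rpl27, a large subunit protein, stood at 1.53, 1.35 and 1.51 in young control pools and at 1.80, 1.84 and 1.94 in aged control pools, so the groups did not overlap. In antibiotic pools it stood at 1.72, 1.41 and 1.56 in young and at 1.71, 1.99 and 2.06 in aged mice, where the lowest aged pool lay just under the highest young pool. Rpl27 rose by 0.34 on the log2 scale in controls (SE 0.0780, limma adjusted p 0.0233) and by 0.29 in antibiotic pools (adjusted p 0.0322). It was the 1 member of 81 called in each, where 2.66% and 6.15% of all genes were called. The members' median was 0.02 in both arms, with 51 and 52 of 81 above 0, and all genes had medians of 0.02 and 0.03. Members with an unadjusted p under 0.05 numbered 8 in controls (Rpl27, Rpl38, Rpl36a, Rpl36al, Rpl36, Rps21, Rpl37 and Rps27l) and 6 in antibiotic pools (Rpl27, Rpl36a, Rpl35, Rps21, Rpl38 and Rpl36). These are 9.88% and 7.41% of the members, and 12.97% and 19.98% of all genes had such a p. The call of Rpl27 was lost in controls without young control pool 2 (log2 0.28) or without aged control pool 1 (0.36), 2 (0.34) or 3 (0.31), and in antibiotic pools without young antibiotic pool 2 (0.22) or 3 (0.29) or aged antibiotic pool 2 (0.26) or 3 (0.24), with adjusted p up to 0.130 and 0.155. Both calls were lost when low genes were kept in the test as well. Its processed copy Rpl27-ps3, whose reads may be shared with it, averaged 0.135 and had log2 differences of 0.24 and 0.02 that did not pass. The B cell marker list, all 6 of which were above 0 in microglia, summed to 1.85 to 2.08 in young control and 2.75 to 3.95 in aged control microglia, and to 1.73 to 1.98 and 2.59 to 2.79 in young and aged antibiotic microglia. The 6 neutrophil markers, none at 0, summed to 2.30 to 6.46 and 0.637 to 0.734 in young and aged control and to 2.39 to 20.7 and 1.10 to 3.02 in young and aged antibiotic microglia. The part of either list in these values was not tested.

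The stalk proteins and Rpsa overlapped between all groups in microglia. Rplp1 stood at 24.2, 19.3 and 25.2 in young control, 24.9, 20.9 and 24.9 in young antibiotic, 22.5, 22.7 and 25.6 in aged control and 20.7, 24.4 and 25.1 in aged antibiotic pools. Rpsa stood at 7.61, 6.75 and 7.39 in young control, 7.28, 6.68 and 7.43 in young antibiotic, 6.66, 7.24 and 7.39 in aged control and 6.41, 7.92 and 8.27 in aged antibiotic pools. Young control pool 2, young antibiotic pool 2 and aged antibiotic pool 1 were the low pools of their groups for both genes. The age difference was 0.05 and -0.01 for Rplp1, -0.03 and 0.07 for Rpsa, -0.04 and 0.04 for Rplp0 and 0.09 and 0.09 for Rplp2, in controls and antibiotic pools. No adjusted p of these, or of the antibiotic differences of the same 4 genes, was below 0.681.

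**Figure D3:**
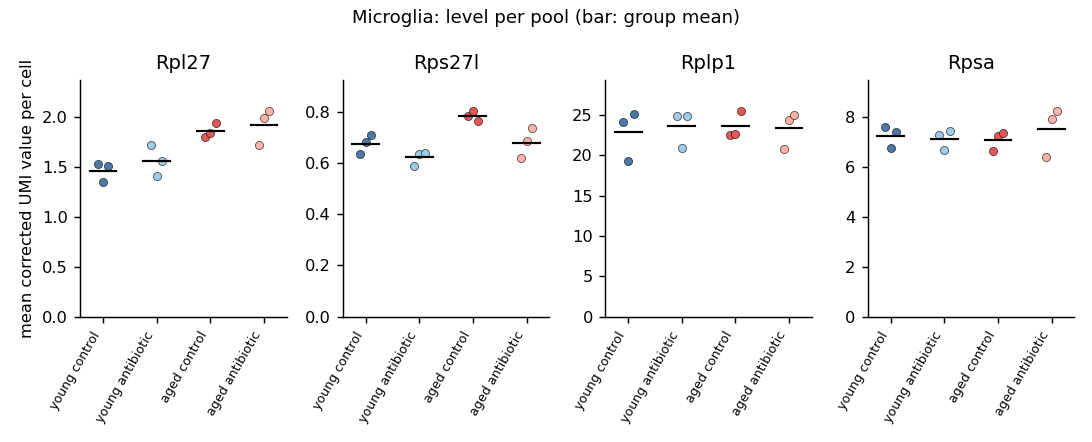
Mean corrected UMI value per microglial cell (y axis, from 0) of 4 members, 1 point per pool and a bar per group mean. Rpl27 separates aged from young pools in the control arm, Rps27l is lower in aged antibiotic than in aged control pools, and Rplp1 and Rpsa overlap in all groups.

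Of the genes of translation kept on lists beside the members, Fau encodes a ubiquitin-like protein fused to the small subunit protein eS30. Its log2 age change in controls and antibiotic pools was -0.02 and -0.06 in microglia, 0.09 and -0.08 in ILCs and 0.01 and 0.04 in CD8+ cells. It was -0.40 and -0.45 in Ly6CLow and -0.54 and -0.56 in Ly6CHigh cells, without overlap of pools in either arm. BAM had -0.24 and 0.03, BCells -0.31 and -0.20, Ly6C+Ly6G+ cells -0.11 and -0.48, and CD4+ controls 0.17. Fau was not called in any of these, with a smallest adjusted p of 0.0519 by limma in Ly6CLow antibiotic pools. In microglia of antibiotic pools, Hnrnpa1 (log2 0.23, limma adjusted p 0.0387), Gnl3 (0.29, 0.0282) and Myc (0.49, 0.0395) rose with age, and in control pools the processed copy Rps12-ps3 fell (-0.45, 0.0498).

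More members passed the test as higher with age in ILCs than in any other type tested. Rplp1 stood at 41.8, 46.2 and 37.6 in young control and 57.7, 59.95 and 71.6 in aged control pools, and at 41.9, 42.1 and 38.6 in young antibiotic and 71.2 and 67.4 in the 2 aged antibiotic pools with at least 10 ILCs. The lowest aged pool exceeded the highest young pool. It rose by 0.59 on the log2 scale in controls (SE 0.0998, limma adjusted p 0.00238) and by 0.76 in antibiotic pools (SE 0.112, 0.000358). In controls 10 of 81 members rose and 0 fell, where 0.912% of all genes were called, and in antibiotic pools 9 rose and 0 fell (1.44%). Rplp1, Rpl37a, Rpl39, Rps19, Rps21 and Rps24 rose in both arms, 6 of 10 called in controls and 6 of 9 called in antibiotic pools. In controls Rps27, a zinc finger protein of the small subunit, rose by 0.56 (adjusted p 0.00475), Rpl39, which lines the exit tunnel, by 0.56 (0.00661), and Rpl37a by 0.55 (0.00475). In antibiotic pools Rpl36a rose by 0.73 (0.0458), Rpl35, at the tunnel exit, by 0.69 (0.0113), and Rps21 by 0.62 (0.00604). Rpl36a stood at 12.0, 7.33 and 9.40 in young and at 15.2 and 16.1 in aged antibiotic pools, which did not overlap. The median over members was 0.29 in controls and 0.26 in antibiotic pools, with 77 and 76 of 81 above 0, and all genes had a median of -0.10 in both. Values above 0 were not particular to ILCs. In CD4+ controls, with 2 pools per age, 47 of 49 large and 30 of 32 small subunit members were above 0. Their medians were 0.22 and 0.16. No member passed there, and 14.8% of members and 5.84% of all genes had an unadjusted p under 0.05 by limma. The antibiotic arm of CD4+ cells had no age test. Of the other lists, 0 of 18 elongation and TOP genes, 0 of 25 initiation factors and 0 of 39 biogenesis genes were called in ILCs in either arm.

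**Figure D4:**
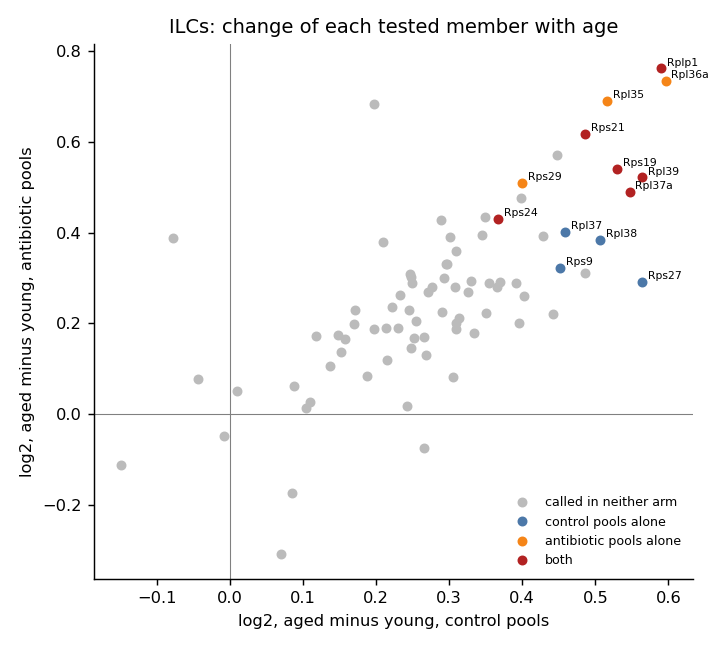
Log2 change of each of 81 tested members with age in ILCs, in control pools (x axis) and antibiotic pools (y axis), coloured by the arm in which it passed the test. Most points lie above 0 on both axes, and Rplp1 has the highest value in antibiotic pools.

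The make-up of the ILC class differed between young and aged pools. The 5 natural killer markers summed to 33.3 to 59.3 in young control and 7.0 to 20.2 in aged control pools, and to 35.3 to 43.4 and 36.4 to 39.8 in young and aged antibiotic pools. In antibiotic pools these markers went in different directions without overlap. Gzma was at 17.7 to 21.8 in young and 25.9 and 27.6 in aged pools. Ncr1 (2.89 to 4.11 against 1.25 and 2.28), Klrb1c, Nkg7 (10.8 to 15.1 against 7.06 and 7.72) and Eomes were lower in aged pools. The 5 innate lymphoid markers summed to 4.06 to 6.04 in young control, 8.22 to 18.5 in aged control, 1.94 to 4.00 in young antibiotic and 13.4 to 22.0 in aged antibiotic pools, with none of either list at 0. The 6 neutrophil markers summed to 1.84 to 52.4 in young control and 0.545 to 0.774 in aged control pools, where Retnlg was at 0. The T cell marker Cd3e averaged 2.01 in aged control pool 2, which held 87 of the 129 aged control ILCs. It was at most 0.88 in the other pools of at least 10 ILCs, and averaged 3.25 in CD8+ cells. The part of these lists and of Cd3e in the age values was not tested. Cells with a value above 0 for Ncr1 or Klrb1c made up 75.3% and 83.3% of young control and young antibiotic ILCs, and 22.5% and 34.8% of aged control and aged antibiotic ILCs. The share of RNA value on the members was 5.58 points higher with age in controls and 4.63 points higher in antibiotic pools, with no overlap. A split by these genes was chosen after seeing the data: among cells with Ncr1 or Klrb1c above 0 the share was 27.6% in aged and 25.6% in young control pools, 1.92 points apart over pools of at least 5 such cells, and 27.0% and 26.6% in antibiotic pools, 0.355 points apart, and pools overlapped in both. Among the remaining control ILCs it was 32.8% in aged and 28.1% in young pools, 4.75 points apart, with overlap. Aged control pool 1, with 4 cells above 0 for these genes and a share of 31.7%, is left out by that minimum, and with it the first difference was 3.30 points, with overlap. With no minimum, the remaining antibiotic ILCs differed by 7.55 points without overlap, over young pools of 2, 5 and 4 cells. The pools held 11 to 87 ILCs, and with at least 20 cells per pool 0 of 81 members passed in controls, with Rplp1 at 0.65. The control count of 10 was 3 without young control pool 1, 4 without young control pool 3, 6 and 5 without young antibiotic pools 2 and 3, and 5 and 4 without aged control pools 2 and 3, and the antibiotic count of 9 was 4 without young antibiotic pool 2 or 3. Rpl39 was not called without young control pool 1 (adjusted p 0.0596), nor Rpl36a without young control pool 1 or 3 or young antibiotic pool 2 or 3 (up to 0.231).

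In Ly6CLow cells the members went the other way. Rps4x stood at 30.4, 28.8 and 29.0 in young antibiotic and 16.8, 17.5 and 21.4 in aged antibiotic pools, and at 26.7, 25.9 and 27.1 in young control and 17.6, 17.5 and 22.4 in aged control pools. No aged pool reached a young pool. In antibiotic pools 30 of 81 members fell and 0 rose (14 of the large and 16 of the small subunit), where 1.95% of all genes were called, and in controls 1 fell, Rpl28, where 0.755% were. Rps4x fell by 0.67 on the log2 scale (SE 0.126, limma adjusted p 0.00922), Rps3a1 by 0.60 (0.0196) and Rplp0 by 0.59 (0.0174). Rpl28 stood at 20.7, 21.1 and 21.6 in young and 13.2, 12.5 and 16.9 in aged control pools and fell by 0.58 (0.0488). All 81 members had a value below 0 in both arms, with medians of -0.38 and -0.47, where all genes had -0.21 and -0.11. Of the 18 elongation and TOP genes, Tpt1 fell in controls and Eef1b2, Tpt1 and Rack1 in antibiotic pools.

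Cells with few UMIs moved with this difference. Cells under 2000 raw UMIs made up 4.70% and 4.00% of young control and young antibiotic Ly6CLow cells and 32.1% and 31.1% of aged control and aged antibiotic ones. Among cells of at least 2000 raw UMIs 0 of 81 members passed in either arm, and the medians were -0.02 and -0.14, with all genes at -0.03 and 0.05. There the share of RNA value on the members differed by -0.147 and -2.05 points, with overlapping pools, against -3.997 and -5.20 points without overlap over all cells. The B cell list in Ly6CLow cells summed to 0.900 to 1.57 in young control and 1.94 to 61.2 in aged control pools, and to 1.02 to 2.63 and 2.12 to 64.8 in young and aged antibiotic pools, with Ms4a1 at 0 in young controls. The 5 innate lymphoid markers, none at 0, summed to 0.341 to 0.948 and 2.33 to 5.11 in young and aged control and to 0.429 to 1.03 and 2.71 to 4.5 in young and aged antibiotic pools. The part of these lists was not tested. The antibiotic count of 30 was 54 without aged control pool 3, 18 and 17 without young control pools 1 and 3, 2, 3 and 1 without young antibiotic pools 1, 2 and 3, and 0 without aged antibiotic pool 1 or 2. The control count of 1 was 53 without aged control pool 3, 2 without aged antibiotic pool 3 and 0 without any other pool. Rps4x kept its call in 10 of 12 such fits and lost it without aged antibiotic pool 1 (-0.60) or 2 (-0.63). Without either of these, Rps3a1 and Rplp0 lost theirs as well, as did Rplp0 without young antibiotic pool 2 or 3 and Rps3a1 without any 1 of the 3 young antibiotic pools, with adjusted p up to 0.0985 for Rplp0 and 0.0990 for Rps3a1. The test of the difference between the arms in the age change called 0 members in Ly6CLow cells.

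In CD8+ cells single members changed with age in both directions. Rpl38 stood at 20.1 and 19.4 in the 2 young control pools with at least 10 cells and at 26.6, 28.4 and 27.9 in aged control pools. Rpl37 stood at 26.0 and 25.1, and at 34.2, 34.8 and 35.2. The groups did not overlap for either gene. Rpl38 rose by 0.48 (limma adjusted p 0.0471) and Rpl37, a zinc-binding protein near the tunnel exit, by 0.44 (0.0265), 2 of 81 members where 0.241% of all genes were called. In antibiotic pools 3 fell, where 0.664% were called: Rplp0 by 0.54 (0.0233), Rpl29 by 0.49 (0.0411) and Rpl8 by 0.38 (0.0416). Rplp0 stood at 49.5, 42.2 and 56.2 in young and 36.6, 34.1 and 30.6 in aged antibiotic pools, again with no overlap. The medians were 0.07 and -0.10, with all genes at 0.05 and -0.06. These calls rest on few cells: young groups held 53 CD8+ cells each and aged groups 270 and 352. The control count was 0 without any 1 of the aged control pools or without aged antibiotic pool 2, 7 and 4 without young antibiotic pools 2 and 3, and 1 without aged antibiotic pool 1 or 3. The antibiotic count was 16 without young antibiotic pool 2, 1 without aged control pool 2 or 3, and 0 without young antibiotic pool 1 or 3, aged control pool 1 or aged antibiotic pool 2 or 3, with adjusted p of Rplp0 up to 0.174. The B cell list summed to 0.667 to 1.22 in young antibiotic and 11.35 to 73.6 in aged antibiotic CD8+ pools and to 0.677 to 1.35 and 1.375 to 50.3 in young and aged control pools, with Cd79a and Ms4a1 at 0 in both young groups. The 5 Ly6C-high monocyte markers, none at 0, summed to 12.7 to 19.3 in young and 3.39 to 4.72 in aged antibiotic pools and to 6.97 to 8.12 and 2.33 to 3.73 in young and aged control pools. The 5 natural killer markers summed to 21.5 to 30.7 and 15.5 to 15.96 in young and aged control and to 10.2 to 16.9 and 12.8 to 15.6 in young and aged antibiotic pools. The 6 neutrophil markers summed to 2.29 to 126.4 and 0.529 to 0.634 in young and aged control and to 1.78 to 2.13 and 0.385 to 0.558 in young and aged antibiotic pools, and none of either list was at 0. The part of these lists in the calls was not tested. With values divided by the cell's total the antibiotic count was 7, of which 6 rose and 1 fell.

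In the 38 remaining comparisons, over the types and contrasts not named so far, 0 members passed, where 0.0234% of the genes tested in them did. Members with an unadjusted p under 0.05 numbered between 0 and 34 of 81 or 82 in these, where between 1.03% and 17.4% of all genes had such a p, and the members' share was above that of all genes in 6 of the 38. The smallest adjusted p of a member was 0.0689 by limma. That value and the 34 belonged to antibiotic minus control in young CD8+ cells, where 41.98% of members and 17.4% of all genes had an unadjusted p under 0.05 and the count of calls became 20, all higher, without young antibiotic pool 2.

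By share of RNA value, age differences pointed in opposite directions in different types. In control pools the share was lower with age in BAM (-2.17 points), Ly6CLow (-3.997) and BCells (-4.35) and higher in ILCs (5.58), CD4+ (4.31) and CD8+ cells (2.64), each without overlap of pools. The CD4+ difference rests on 2 pools per age and the CD8+ difference on 3 aged and 2 young pools. In antibiotic pools the share was lower in Ly6CLow (-5.20) and higher in ILCs (4.63, with 2 aged pools) without overlap. It overlapped there in BAM (0.376), BCells (-0.963) and CD8+ cells (0.508). In microglia it differed by 0.168 and 0.105 points with overlap. Among cells of at least 2000 raw UMIs the control differences were -1.81 in BAM, with overlap, -2.86 in BCells, 6.09 in ILCs, 3.70 in CD4+ and 2.10 in CD8+ cells, without. In Ly6CHigh cells the share was 1.90 points higher with age in controls over all cells, with overlap. It differed by -1.08 points, without overlap, among cells of at least 2000 raw UMIs, where 2 aged and 3 young control pools remained. Of the control cells, 45.3% of aged and 1.23% of young ones lay under that depth. Over all cells the members' levels in Ly6CHigh went the other way, though no member passed. Their median log2 age change in controls was -0.20 (large subunit) and -0.23 (small subunit), with 4 of 49 and 3 of 32 above 0. In antibiotic pools the medians were -0.22 and -0.20, with 2 of 49 and 2 of 32 above 0. There 59.6% of aged and 1.64% of young Ly6CHigh cells lay under 2000 raw UMIs. In Ly6CHigh controls 6.17% of members and 12.8% of all genes had an unadjusted p under 0.05 by limma for age. For antibiotic pools these shares were 4.94% and 10.0%. Antibiotics in aged mice went with a higher share in BAM by 1.77 points (13.1, 13.8 and 14.4% against 10.996, 12.5 and 12.4%) without overlap, and by 2.11 points among the deeper cells, while no single member passed there. The 6 microglia markers, none at 0, summed to 28.0 to 42.7 in aged control and 14.2 to 22.9 in aged antibiotic BAM, without overlap, and their part in the difference was not tested. In aged Ly6C+Ly6G+ cells the share was 2.06 points higher in antibiotic pools without overlap, and among the deeper cells the difference was -0.927 points, also without overlap. Both differences rest on 2 pools per arm, and the deeper aged antibiotic pools held 10 and 19 cells. In young Ly6CLow cells the share was 0.700 points higher in antibiotic pools without overlap, which became 0.665 with overlap among the deeper cells. In aged Ly6CHigh cells it was 0.476 points higher with overlap, and 1.53 points higher without overlap among the deeper cells, with 3 antibiotic and 2 control pools.

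**Figure D5:**
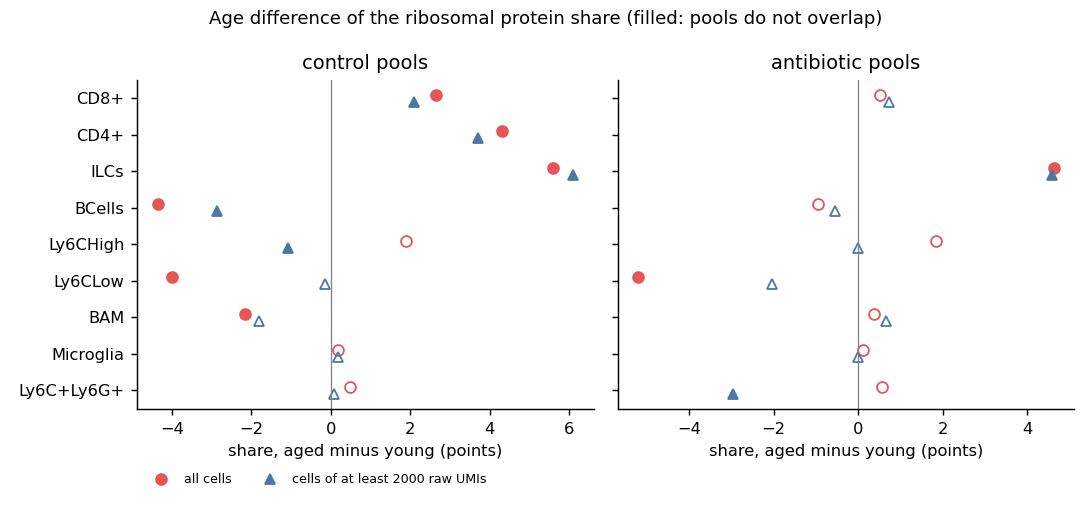
Difference of the members' share of RNA value, aged minus young, in percentage points (x axis) for each cell type (y axis), in control pools (left) and antibiotic pools (right), for all cells (circles) and cells of at least 2000 raw UMIs (triangles). Filled symbols mark pools that do not overlap. ILCs lie between 4.58 and 6.09 points in both arms and at both depths, and the Ly6CLow control difference goes from -3.997 to -0.147.

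Within the family, some members stood above or below the rest with age in most types. To describe this, the median age change of the 80 members was subtracted from each member's own in every type and arm, 17 columns in all, and the members named next were singled out after these values were seen. Rps21, a small subunit protein, lay above the median member in 16 of 17 columns with a mean of 0.21 on the log2 scale, and Rpl27 in 16 with a mean of 0.20. Rpl37 (0.18, 15 columns), Rpl36a (0.18, 16), Rpl35 (0.18, 15), Rpl36 (0.16, 15), Rpl39 (0.16, 16), Rpl38 (0.15, 14) and Rpl37a (0.13, 15) followed. At the other end were Rpl29 (-0.15, above in 2 columns), Rplp0 (-0.13, 4) and Rpl28 (-0.08, 4). Across the 80 members, the pattern in control pools and that in antibiotic pools of the same type, which share no pool but share the wells, had a Pearson value of 0.878 in microglia, 0.822 in CD8+ cells, 0.722 in Ly6CLow, 0.697 in ILCs, 0.610 in BCells, 0.570 in Ly6CHigh, 0.539 in BAM and -0.112 in Ly6C+Ly6G+ cells. Between different types the median was 0.334 over 36 pairs in control pools (-0.0935 to 0.705) and 0.214 over 28 pairs in antibiotic pools. Genes are not independent replicates, and these values describe the pools and the 2 wells they ran in.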

How the data were processed

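The deposited RNA table holds a score per gene and cell, the authors' SCTransform-corrected UMI value, and the deposited metadata hold raw UMI counts per cell, hashtag pool, group and cell type. Per the submitters' processing notes, Cell Ranger 3.0.2, Seurat 3.0.1 and build mm10 were used; the covariates of the correction and the cell filters are not given in the sources used here. Of the metadata, 34 columns were not used. The 2 wells share 59 cell barcodes, and cells were kept apart by well. The 9 cells of the class NKCells were not analysed here.

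The mean per cell was taken for each type and pool (at least 10 cells), 0.05 was added, and log2 taken, so a change of a low gene is understated. Genes averaging 0.05 or more in the fitted pools were tested with limma 3.58.1 (R 4.3.3; trended prior variance), 1 fit per type over all groups, and p-values were adjusted by Benjamini-Hochberg within each contrast over all genes, with a threshold of 0.05. The 6 brains of a group were collapsed into 3 pools, and p-values measure the spread between pools. Tables and figures were made with Python 3.11.15, pandas 2.3.3, numpy 2.4.6, scipy 1.17.1 and matplotlib 3.10.9, and the fit was tested on simulated data. The members, lists and tests were chosen with earlier results of these data known. Members were named by a written rule: in microglia those called or, if none, the 2 with the smallest p; elsewhere up to 4 called per contrast; over types the 6 widest and 4 narrowest ranges; the stalk proteins, Rpsa and the paralog pairs always; and the 8 genes most like the median member. Some genes that this rule names are not reported here. Alternatives were other pseudocounts (0.5 and 0.01), no filter, values per 10000 of the cell's total, means of log values, depth limits, cell weights, at least 20 cells per pool and leaving out each pool.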

Additional observations from a re-analysis of the deposited data

Results flagged for a closer look

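The share of RNA value on ribosomal protein genes moved with age in opposite directions in different cell types, every pool of one type one way and every pool of the other type the opposite way. In control pools it was lower in aged mice in BAM (-2.17 points), Ly6CLow (-3.997) and BCells (-4.35), and higher in ILCs (5.58), CD4+ (4.31) and CD8+ cells (2.64). In antibiotic pools it was lower in Ly6CLow (-5.20) and higher in ILCs (4.63). Among cells of at least 2000 raw UMIs, pools overlapped in BAM (-1.81) and in Ly6CLow (-0.147 in control and -2.05 in antibiotic pools), and did not in BCells (-2.86), ILCs (6.09 and 4.58), CD4+ (3.70) and CD8+ cells (2.10). The differences between these types were not tested. Outlying pools were not looked for, since every group had at most 3 pools. The CD4+ controls had 2 pools per age, the young CD8+ controls 2 and the aged antibiotic ILCs 2.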

How the results depend on the processing

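No paired analysis was possible because the labels give each hashtag number to 1 pool per well and do not say that pools of the same number share a litter, day or batch. Results that moved are listed by setting, as the number of members called. With no filter on low values the counts were 0 in microglia for age in controls and in antibiotic pools, 0 and 2 in Ly6CLow, 4 and 3 in ILCs and 0 and 0 in CD8+ cells, where more genes enter the adjustment. With cells of at least 2000 raw UMIs they were 1 in microglia for antibiotics over both ages, 2 for age in controls, 0 and 0 in Ly6CLow and 1 in CD8+ controls. With means of log values they were 1 and 2 for the same 2 microglia comparisons, and with cells of 5000 to 9000 raw UMIs 2 for age in controls. With values per 10000 of the cell total they were 5 in Ly6CLow controls and 4 and 7 in CD8+ cells. With at least 20 cells per pool ILC controls had 0, and the antibiotic arm could not be fitted. The age difference of the ILC share was 1.92 (control) and 0.355 (antibiotic) points among cells with a natural killer gene, a setting chosen after seeing the data. The control value was 3.30 with the pool of 4 such cells kept. Among cells without such a gene it was 4.75 in control pools and, with no minimum of cells, 7.55 in antibiotic pools. Leaving out 1 pool gave 0 to 1 called member in microglia over both ages, 0 to 2 and 0 to 2 for age, 0 to 53 and 0 to 54 in Ly6CLow, 3 to 11 and 4 to 11 in ILCs, 0 to 7 and 0 to 16 in CD8+ cells, and 0 to 20 for antibiotics in young CD8+ cells. Where no cause is stated, the cause was not tested. Among the single genes followed under each setting, 23 calls were lost and 2 gained under other settings, and 68 were lost and 1 gained when a pool was left out. Differences of the share between groups were also taken among cells of at least 2000 raw UMIs, a setting added after seeing the data, and 5 of them changed sign: antibiotic minus control in aged Ly6C+Ly6G+ cells (-0.927), aged minus young in antibiotic pools of Ly6C+Ly6G+ cells (-2.97), microglia (-0.0106) and Ly6CHigh cells (-0.00895), and aged minus young in Ly6CHigh controls (-1.08). No named gene changed direction, and member medians in microglia and shares per type moved by less than 1 SD under every alternative run for them. For the medians that SD, 0.147 between pools of a group, is larger than the medians themselves, so it does not show that they are stable. Leaving out 1 pool gave microglia medians on both sides of 0. They were -0.0471 to 0.111 for antibiotics in young mice, -0.0304 to 0.131 in aged mice, and -0.0592 to 0.0678 for age in controls.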
